A study of Mus musculus with 59 samples.

Results

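The genes described here are 37 marker genes of macrophages, picked by gene symbol from the 24972 genes listed in each table of normalized values. They were read in 4 classes: 10 lineage and signalling genes, 8 inflammatory genes, 10 phagocytic genes and 9 genes typical of resident macrophages. All 37 symbols were found in the tables of gastrocnemius, soleus and liver. Libraries came from adult wild-type male C57BL/6 mice. In gastrocnemius there were 15 libraries in 5 groups of 3, from uninjected mice on standard diet (C), from mice 2 or 30 days after injection (DPI) of 10 µM cardiotoxin, a snake toxin that kills muscle fibers, into the left hind limb (CTX), and from injected mice that then ate the same diet with hydroxycitrate until day 2 or day 30 (CTX-HC). Hydroxycitrate (HC) inhibits ATP citrate lyase, which makes cytosolic acetyl-CoA. In soleus and in liver, 5 libraries came from uninjured mice on standard diet (Ut) and 5 from mice fed HC chronically (HC). The design asks how these genes stood at each time after injury, whether HC feeding altered them in injured muscle, and whether it altered them in tissue that was not injured. The mice of 2 DPI were taken from the uninjected cohort once the late groups neared their end, and no uninjected group of the gastrocnemius set was fed HC. The same C libraries serve 4 of the comparisons below.

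Macrophages take up and digest dead cells. In injured muscle, monocytes with high Ly6C enter from blood and turn into inflammatory macrophages that clear dead fibers, and later macrophages accompany fiber growth. The lineage class holds the receptors, adaptors and the transcription factor that macrophages need (Csf1r, the receptor for colony stimulating factor 1, Spi1, which encodes PU.1, and the adaptors Tyrobp and Fcer1g), together with Ptprc, which encodes CD45 and is made by all white blood cells. The inflammatory class holds genes of entering monocytes and of activated macrophages, the phagocytic class holds lysosomal enzymes and scavenger receptors, and the resident-type class holds complement C1q subunits and surface receptors such as Mrc1 (CD206), Cd163, Lyve1, Folr2 and Timd4.

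Promoters of 26 of the 37 genes, from 250 bases before to 50 bases after the transcription start, were taken from RefSeq on GRCm38.p6. PU.1, the product of Spi1, binds DNA with the core GAGGAAGT, and the factors that drive lysosomal genes bind TCACGTGA. Promoters of 3 of the 26 genes (Ctss, C1qc and Ly6c2) held GAGGAAGT on either strand, against 3.69% of 27025 genes, and they are shown because they come from 3 classes that are described apart. TCACGTGA was in 1 of the 26, that of the lysosomal protease Ctsd, against 1.12% of genes. Capitals mark the motif, or its reverse complement where it lies on the other strand.
Ctss (chr3:95526536-95526835, plus strand): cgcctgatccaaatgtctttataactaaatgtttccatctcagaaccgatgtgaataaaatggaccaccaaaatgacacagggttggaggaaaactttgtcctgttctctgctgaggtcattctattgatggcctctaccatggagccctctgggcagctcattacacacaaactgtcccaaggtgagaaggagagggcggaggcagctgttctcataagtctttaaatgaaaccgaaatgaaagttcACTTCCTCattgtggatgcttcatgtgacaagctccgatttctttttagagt
C1qc (chr4:136892865-136893164, minus strand): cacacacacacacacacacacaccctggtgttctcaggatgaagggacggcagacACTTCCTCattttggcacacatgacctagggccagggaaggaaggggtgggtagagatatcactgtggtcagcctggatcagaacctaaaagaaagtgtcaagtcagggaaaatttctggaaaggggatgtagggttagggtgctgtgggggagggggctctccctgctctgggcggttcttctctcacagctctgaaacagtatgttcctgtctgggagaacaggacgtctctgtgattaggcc
Ly6c2 (chr15:75111922-75112221, minus strand): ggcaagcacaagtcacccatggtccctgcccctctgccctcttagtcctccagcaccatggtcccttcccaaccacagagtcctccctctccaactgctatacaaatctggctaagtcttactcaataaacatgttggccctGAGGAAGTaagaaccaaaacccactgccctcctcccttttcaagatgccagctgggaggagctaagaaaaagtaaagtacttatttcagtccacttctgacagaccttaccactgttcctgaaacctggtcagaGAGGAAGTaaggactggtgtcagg
Ctsd (chr7:142387778-142388077, minus strand): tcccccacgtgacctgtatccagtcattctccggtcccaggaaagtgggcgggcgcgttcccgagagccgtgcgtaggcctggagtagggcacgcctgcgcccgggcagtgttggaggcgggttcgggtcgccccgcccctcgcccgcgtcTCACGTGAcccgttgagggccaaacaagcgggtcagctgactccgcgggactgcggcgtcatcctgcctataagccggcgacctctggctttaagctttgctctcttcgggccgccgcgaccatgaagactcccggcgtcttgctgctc
The motif began at position -2 from the start in Ctss and at position -195 in C1qc, and Ly6c2 held it at 2 places, the first at position -108. In Ctsd the lysosomal motif began at position -99. The shorter AGGAAGT, which lies within the core above, was in 10 of the 26 promoters against 10.7% of genes. Of the other motifs searched, GAGGAAG was in 10 (15.4% of genes), AGAGGAAG in 5 (5.22%), TCATGTG in 4 (4.31%), TATAAA in 4 (15.7%), TGACTCA in 3 (5.95%), TCACGTG in 1 (4.29%) and CACGTG in 1 (8.09%), and these overlap each other and the cores in part. A match describes letters in this window and does not show binding. The 3 complement genes lie side by side on the minus strand of GRCm38 at chr4:136880129-136886187 (C1qb), chr4:136889804-136893065 (C1qc) and chr4:136895917-136898803 (C1qa). Promoters of Spi1, Csf1r, Adgre1, Tyrobp, Cd14, Nos2, Arg1, Ctsb, Msr1, C1qa and Lyve1 were not matched.

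Values are gene counts that the authors divided by a size factor per library, given below as normalized values, and levels are compared between libraries and never between genes. The estimated depth was between 16.0 M and 34.9 M reads in gastrocnemius, between 8.93 M and 11.2 M in soleus, and for liver between 7.69 M and 13.1 M. Genes of muscle fibers summed to between 948157 and 3640630 in gastrocnemius (9 genes), hepatocyte genes to between 674193 and 1095660 in liver (8 genes), and the Kupffer cell gene Clec4f was listed at 0 in the C, CTX and CTX-HC libraries of gastrocnemius. Lymphocyte transcripts were uneven between libraries. In the CTX 30 DPI library 51 and the CTX-HC 30 DPI library 62, 6 B cell genes summed to 480.2 and 4957.1. The other 13 gastrocnemius libraries had 3.6 to 37.5. For 10 T and NK cell genes the sums were 224.3 and 1885.7, against 0 to 66.8. Other cell types differed too. Library 62 had the highest sums of mast cell (1570.9), adipocyte (1106.8) and dendritic cell genes (1249.9), above 199.6, 199.8 and 552.1 at most elsewhere in gastrocnemius. Fibroblast genes summed to 58617.5 and 55364.7 in libraries 51 and 62, against 10631.7 to 16058.3 in the other libraries of 30 DPI. The CTX 2 DPI library 57 lay with the C libraries in overall expression (first principal component -16.3, against -71.4 to -16 for C and 33.6 and 73.4 for the other CTX libraries of that day). In soleus the HC library 75 and the Ut library 70 stood apart on the first component, at 39.4 and 24.4 against -28.7 to 9. Results that rest on these libraries are given with and without them. In gastrocnemius each library is from 1 mouse, by the study's description. For soleus and liver the labels do not say whether libraries are from separate mice, so p values there measure the spread between these libraries.

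The plot of the gastrocnemius libraries shows the level of the classes in each library and how unlike libraries of a group could be. The median difference of the 36 genes tested from the mean of C, on the log2 scale, was 0.61, -1.17 and 0.56 in the 3 C libraries, of which the first and the third are libraries 54 and 53. At 2 DPI it was 2.14, 2.14 and 0.13 in CTX libraries 55, 56 and 57, and 3.62, 3.29 and 1.66 in CTX-HC libraries 58, 59 and 60. At 30 DPI it was 1.32, -1.47 and -1.63 in the CTX libraries, of which the first is library 51 and the third library 50, and -1.33, -1.39 and 0.99 in CTX-HC libraries 63, 61 and 62. The level was highest in CTX-HC libraries 58 and 59, library 60 lay below CTX libraries 55 and 56, and within both groups of 30 DPI the library with many lymphocyte transcripts was the high one. In bulk muscle, fewer cells of a type and less RNA per cell cannot be told apart.

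**Figure D1:**
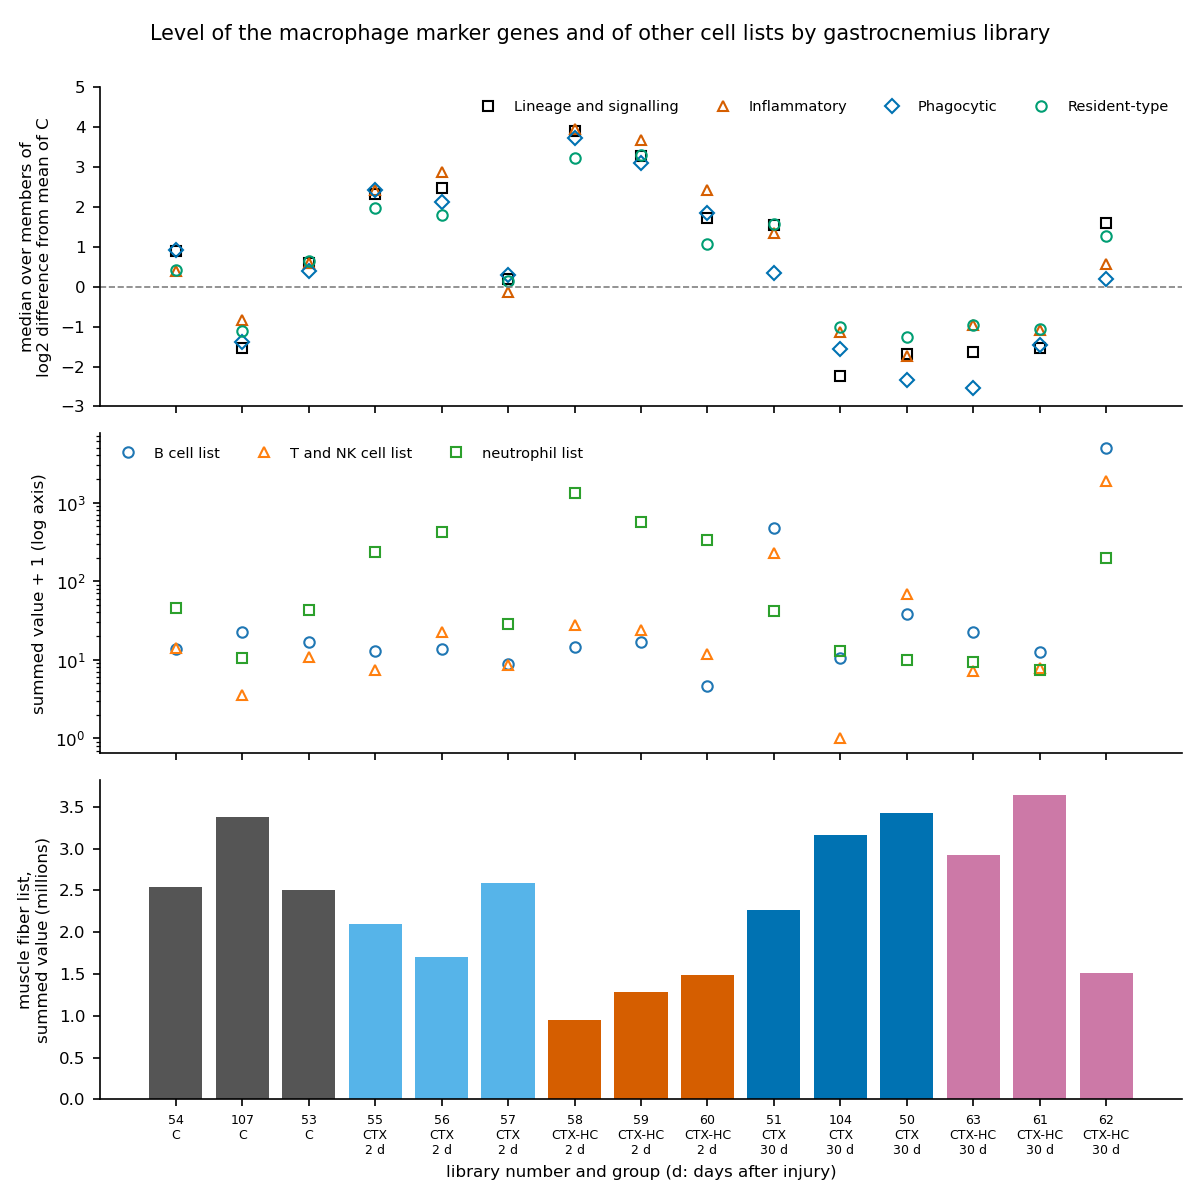
Top, median over the genes of each class of the log2 difference from the mean of the C libraries, for each of 15 gastrocnemius libraries on the x axis. Middle, summed normalized value plus 1 of B cell, T and NK cell and neutrophil genes on a log axis, and bottom, summed value of 9 muscle fiber genes as bars (scaled as the axis states), where CTX-HC libraries 58 and 59 of 2 DPI have the highest macrophage medians and the CTX-HC libraries of that day low fiber sums, and libraries 51 and 62 the highest lymphocyte sums.

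Lineage and signalling genes other than Ptprc had their highest value in a CTX-HC library of 2 DPI. Csf1r, the receptor through which macrophages survive, had values of 627.7, 163.9 and 512 in C, of 1132.3, 1284.2 and 319.3 in CTX and of 3593.6, 3198.1 and 953.5 in CTX-HC at 2 DPI. At 30 DPI Csf1r was 897.2, 196.2 and 114.4 in CTX and 171.4, 223.2 and 1247.6 in CTX-HC. All 3 CTX-HC libraries of 2 DPI lay above all C libraries, while library 57 of CTX lay among them.

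Adgre1, which encodes the surface marker F4/80, was 264.7, 49.8 and 240.8 in C, 658, 502.3 and 125.3 in CTX and 1634, 1268.1 and 365 in CTX-HC at 2 DPI. At 30 DPI it was 364.7, 20.1 and 47 in CTX and 48, 42.9 and 204.3 in CTX-HC, so that CTX-HC libraries of the late day lay below all of the early ones. The adaptor Tyrobp, which carries signals of Trem2 and related receptors, was 106.7, 15.7 and 59.7 in C, 264.7, 316.8 and 67.1 in CTX and 879.5, 574 and 154.6 in CTX-HC at 2 DPI, and 144.9, 4.9 and 14.1 in CTX and 13.2, 8.2 and 115.2 in CTX-HC at 30 DPI. Fcer1g, the signalling chain of Fc receptors, was 194.3, 31.2 and 144 in C, 600.6, 573.2 and 114.1 in CTX and 1693.7, 1110.9 and 297.4 in CTX-HC at 2 DPI, and 225.6, 17.5 and 31.9 in CTX and 30.4, 26.4 and 184.4 in CTX-HC at 30 DPI. For these genes the second C library was the lowest of its group and library 57 the lowest of CTX at 2 DPI.

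Ptprc, the pan-leukocyte gene, followed a different order. It was 147.1, 86.6 and 145.8 in C, 413.8, 477.9 and 67 in CTX and 1211.9, 573.7 and 403.6 in CTX-HC at 2 DPI, but 547.6, 39.8 and 59.5 in CTX and 38.7, 45.8 and 2854.6 in CTX-HC at 30 DPI. Its highest value in the table was thus in library 62, which also had the highest B cell sum and where Adgre1 was at 204.3, inside the range of C. The other lineage genes (Spi1, Itgam, Laptm5, Aif1 and Mpeg1) ranked CTX-HC 2 DPI above the C libraries without overlap, and Laptm5, made by lymphocytes too, was 2588.6 in library 62 against 92.5 to 101.9 in libraries 61 and 63.

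**Figure D2:**
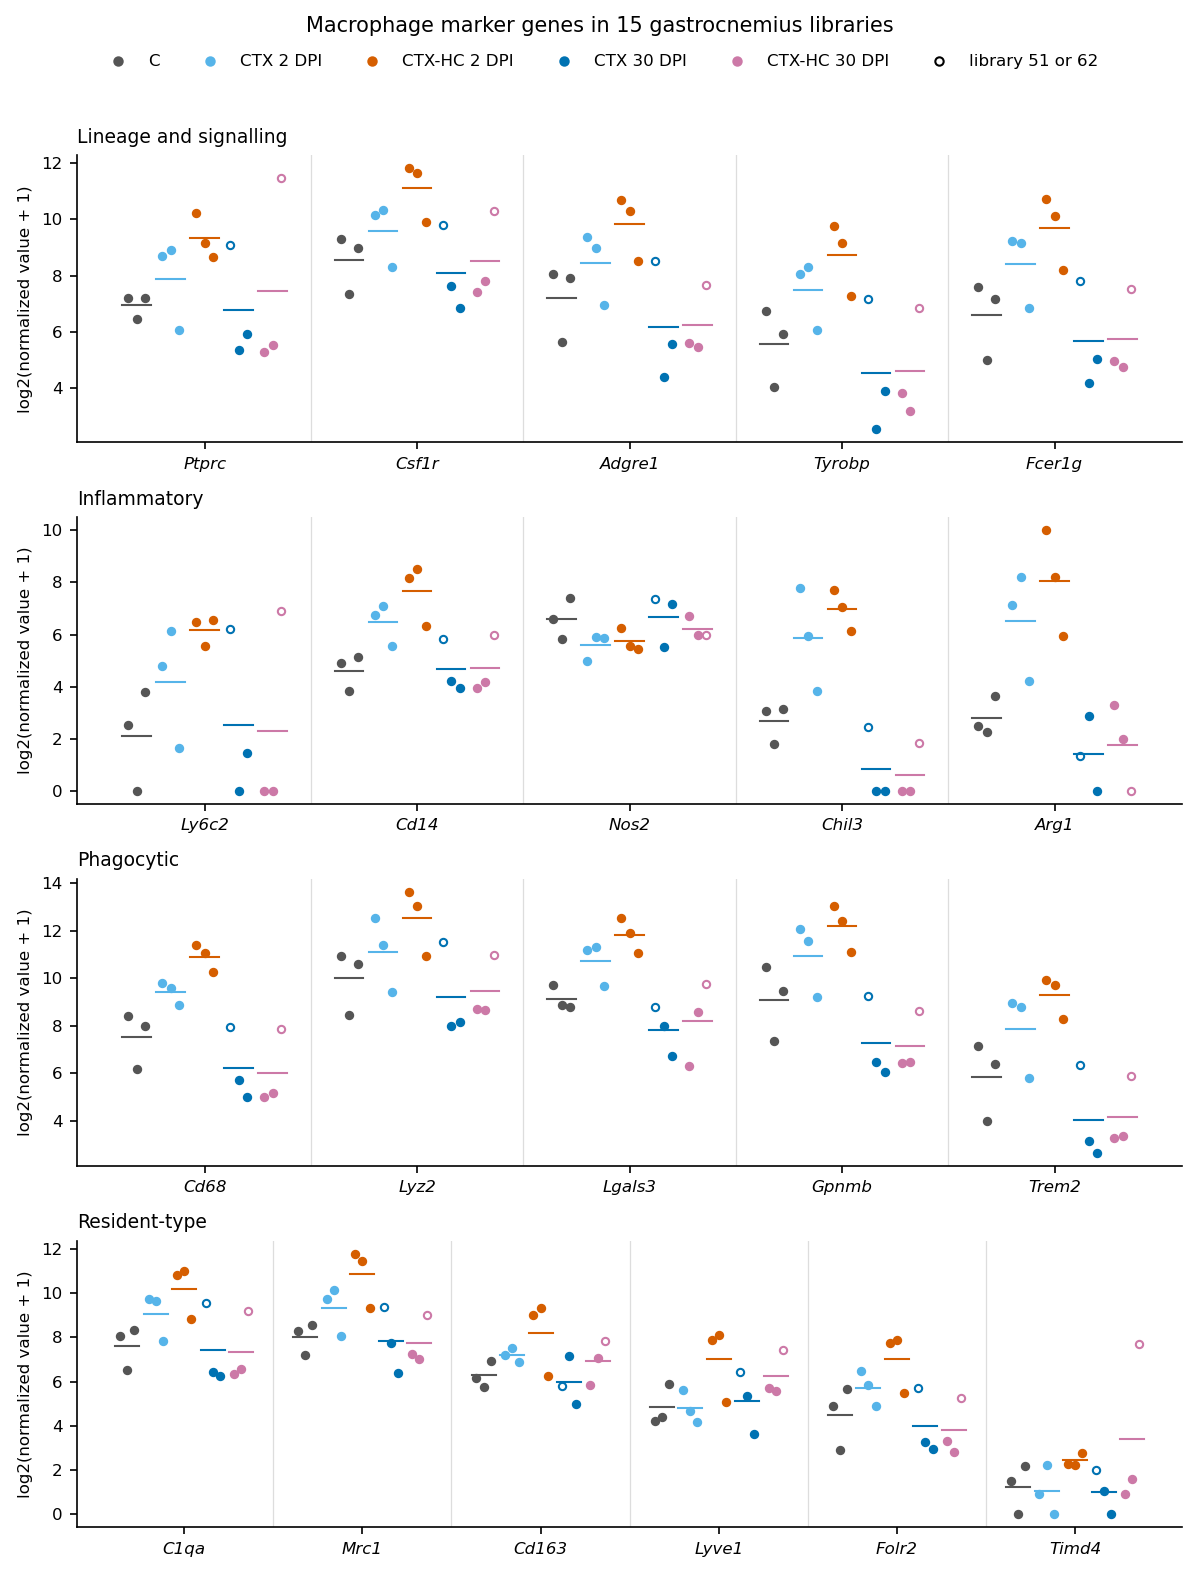
Log2 of the normalized value plus 1 of 21 marker genes in 15 gastrocnemius libraries, by class. Points are libraries, bars are group means on the log2 scale and open points are libraries 51 and 62, which lie above the other libraries of 30 DPI for most lineage genes but not for Arg1, while the group mean is highest in CTX-HC at 2 DPI for most genes.

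The inflammatory class held both the steepest differences after injury and the gene that went the other way. Arg1, which encodes arginase 1 and is a hallmark of wound macrophages, was 4.6, 3.8 and 11.5 in C, 138.1, 294.8 and 17.5 in CTX and 1027.6, 291.2 and 60.8 in CTX-HC at 2 DPI. At 30 DPI Arg1 was 1.5, 6.4 and 0 in CTX and 8.8, 3 and 0 in CTX-HC. No library of 2 DPI overlapped C or the libraries of 30 DPI, and the lymphocyte-rich library 62 had none of it.

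Chil3, a chitinase-like protein that activated macrophages secrete, was 7.3, 2.5 and 7.8 in C, 219.9, 60.4 and 13.3 in CTX and 205.8, 131.7 and 69.8 in CTX-HC at 2 DPI, and 4.5, 0 and 0 in CTX and 0, 0 and 2.6 in CTX-HC at 30 DPI. Of the 37 genes only this 1 reached 10 in libraries of 2 DPI and in no other gastrocnemius library. Cd14, the co-receptor for bacterial lipopolysaccharide, was 29, 13.1 and 33.8 in C, 106.2, 136.7 and 45.9 in CTX and 284.8, 364.8 and 79.8 in CTX-HC at 2 DPI, and 55.1, 17.7 and 14.6 in CTX and 14.6, 17.2 and 62.9 in CTX-HC at 30 DPI.

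Ly6c2, the marker of newly arrived monocytes, was low and uneven. It was 4.7, 0 and 12.7 in C, 26.4, 70.1 and 2.1 in CTX and 88.3, 45.6 and 92.6 in CTX-HC at 2 DPI, and 72.3, 0 and 1.7 in CTX and 0, 0 and 119.5 in CTX-HC at 30 DPI. Its values in libraries 51 and 62 were like those of 2 DPI. The near-identical neighbour Ly6c1, which endothelial cells make, ranged from 435.9 to 713.6 in C, so reads split between the pair could move Ly6c2, and the same holds for Lyz2 with Lyz1.

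Nos2, the inducible nitric oxide synthase of activated macrophages, lay in the lower part of the range of C, or below it, at 2 DPI. It was 95.3, 55.7 and 168.8 in C, 30.6, 59.5 and 56.7 in CTX and 75.1, 46.4 and 42.4 in CTX-HC at 2 DPI, and 164.6, 45.1 and 142.2 in CTX and 104.6, 62 and 62.6 in CTX-HC at 30 DPI. The groups of 2 DPI overlapped C, and the log2 fold change from C was -1.03 ± 0.51 (SE) in CTX and -0.86 ± 0.51 in CTX-HC. The Fc receptors Fcgr1, Fcgr3 and Fcgr2b had their highest values in CTX-HC library 58, at 553.7, 596.2 and 578.7, and Fcgr1, the high-affinity receptor, ranged from 6.6 to 20.7 in C.

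The phagocytic genes named here also had their highest value in a CTX-HC library of 2 DPI. Cd68, a lysosomal membrane protein of macrophages, was 341.3, 70.3 and 251.4 in C, 886.1, 770.4 and 460.2 in CTX and 2707.6, 2107.4 and 1210.9 in CTX-HC at 2 DPI, and 246.6, 51.3 and 31.2 in CTX and 31, 35.2 and 229.9 in CTX-HC at 30 DPI. The 3 groups up to day 2 did not overlap each other, with C lowest and CTX-HC highest.

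Lgals3, which encodes galectin-3, a sugar-binding protein of activated macrophages, was 833.1, 473.1 and 446.1 in C, 2300.4, 2503.5 and 809.8 in CTX and 5900, 3815.3 and 2117.1 in CTX-HC at 2 DPI, and 435.1, 255.3 and 104.4 in CTX and 78.4, 380.2 and 865 in CTX-HC at 30 DPI. Gpnmb, a membrane glycoprotein of lipid-laden macrophages, was 1404.6, 161.3 and 711.1 in C, 4261.1, 3018.1 and 585.6 in CTX and 8487.3, 5482.2 and 2191.8 in CTX-HC at 2 DPI, and 609.3, 88.5 and 65.2 in CTX and 84.2, 87 and 388.1 in CTX-HC at 30 DPI. In both genes every CTX-HC library of 2 DPI was above every C library, and library 57 of CTX was within C.

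Trem2, the receptor that senses lipids of dead cells, was 142, 14.9 and 83.3 in C, 500.1, 440.6 and 55.1 in CTX and 960.4, 837.1 and 310.6 in CTX-HC at 2 DPI, and 79, 7.9 and 5.3 in CTX and 8.6, 9.3 and 57.9 in CTX-HC at 30 DPI. Lyz2, the lysozyme of myeloid cells, was 1957.7, 352.4 and 1527.5 in C, 5958.8, 2654.7 and 682.4 in CTX and 12644.5, 8505.2 and 1956.3 in CTX-HC at 2 DPI, and 2976.7, 252.4 and 283.2 in CTX and 417.3, 400.3 and 1990.5 in CTX-HC at 30 DPI. Library 60 of CTX-HC was just below the highest C library for Lyz2, so these groups overlapped.

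Genes that most cells express moved less. Cd63, a tetraspanin of lysosomes and secreted vesicles, was 1724.5, 1335.3 and 1441.1 in C, 3308.4, 2584.2 and 3196.3 in CTX and 4210.6, 2635.9 and 3459.1 in CTX-HC at 2 DPI, and 1235.2, 1447.2 and 1028 in CTX and 1071.7, 1407.7 and 1216.9 in CTX-HC at 30 DPI. Its libraries of 2 DPI lay above all others, library 57 was not low for it, and libraries 51 and 62 were not high. Ctsb, a lysosomal protease, was 7946.4, 5790.4 and 7577.1 in C and 33150.8, 22754.9 and 10602.3 in CTX-HC at 2 DPI. The gene models of Ctsb and Csf1r overlap a coding gene on the opposite strand, and those of Ctsd and Itgam overlap one on the same strand, which the counting may not separate.

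Among resident-type genes, the receptors of tissue macrophages were high in 2 of the 3 CTX-HC libraries of 2 DPI. Mrc1 was 315.1, 145.6 and 373.2 in C, 835.3, 1127.3 and 266.5 in CTX and 3494.7, 2775.7 and 644.8 in CTX-HC at 2 DPI, and 657.1, 210.5 and 82.3 in CTX and 149.5, 128.9 and 519.9 in CTX-HC at 30 DPI. Cd163, the scavenger receptor for hemoglobin, was 71.6, 53.2 and 119.2 in C, 145, 179.9 and 117.5 in CTX and 516.1, 648.4 and 75.2 in CTX-HC at 2 DPI, and 55.4, 143.2 and 30.7 in CTX and 55.9, 133.1 and 229.2 in CTX-HC at 30 DPI. Library 60 of CTX-HC was above C for Mrc1 and inside C for Cd163.

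Lyve1, a hyaluronan receptor of perivascular macrophages and of lymph vessels, was 17.5, 19.9 and 59.1 in C, 47.9, 24.5 and 16.8 in CTX and 231.3, 270 and 33.2 in CTX-HC at 2 DPI, and 85.8, 39.3 and 11.4 in CTX and 51.9, 46.3 and 172 in CTX-HC at 30 DPI. Its CTX values of 2 DPI lay within the range of C or just below it. The folate receptor gene Folr2 was 29.1, 6.5 and 49 in C, 87.9, 55.9 and 28.3 in CTX and 215.7, 233.3 and 43.2 in CTX-HC at 2 DPI, and 51.6, 8.6 and 6.8 in CTX and 9.1, 6.1 and 37.6 in CTX-HC at 30 DPI, with library 60 again inside the range of C.

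C1qa, a subunit of complement C1q, was 263.8, 89.5 and 318.8 in C, 836.1, 788.2 and 227.4 in CTX and 1780.5, 2007.7 and 447.2 in CTX-HC at 2 DPI, and 755.7, 85.7 and 75.4 in CTX and 78.8, 93.7 and 579.6 in CTX-HC at 30 DPI, and C1qb and C1qc had their highest values in libraries 58 and 59 too, at 2503.8 and 2454.3 for C1qb. Timd4, a receptor for phosphatidylserine, was 0 to 5.9 in every gastrocnemius library other than library 62, where it was 206.2, and as the only 1 of the 37 genes it did not reach the limit for testing.

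Tests used limma on log2(value + 1) over all 14033 genes that reached a value of 10 in at least 3 libraries, with Benjamini-Hochberg adjusted p values, and fold changes of low genes are understated on this scale. At 2 DPI, CTX muscle was above C for 34 of the 36 genes, with a median log2 fold change of 1.5 (range -1.03 to 3.71) against 0.03 over all genes, and with class medians of 1.67 for lineage, 1.97 for inflammatory, 1.66 for phagocytic and 1.26 for resident-type genes. The highest values were 3.71 ± 1.22 (SE) for Arg1 and 3.19 ± 0.98 for Chil3, and that of Cd63 was 1.01 ± 0.20. No macrophage gene passed (0% of all genes called by limma, lowest adjusted p of a macrophage gene 0.116 for Cd63), while 5 macrophage genes and 2095 genes in all had an unadjusted p under 0.05. At the limit the study used, these were Arg1, Cd14, Cd63, Cd68 and Chil3, 5 of 36 against 4.73% of all genes. That limit is an unadjusted p up to 0.05 with a log2 fold change of 1 or more either way. The p values it was applied to are those of limma here and those of DESeq2 in the study. Limma called fewer genes at this limit than the study reports for CTX-HC against CTX at either day, for soleus and for liver. All counts at this limit given here are those of limma and not those of the study's own test. Arg1 and Chil3 reached the limit for testing only through libraries of 2 DPI, so their rise is a description. For 7 of the 36 genes, every CTX library was above every C library, against 13.5% of all genes. Leaving out library 57 gave a median of 2.18 and again no gene that passed, and leaving out the second C library gave 0.87.

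**Figure D3:**
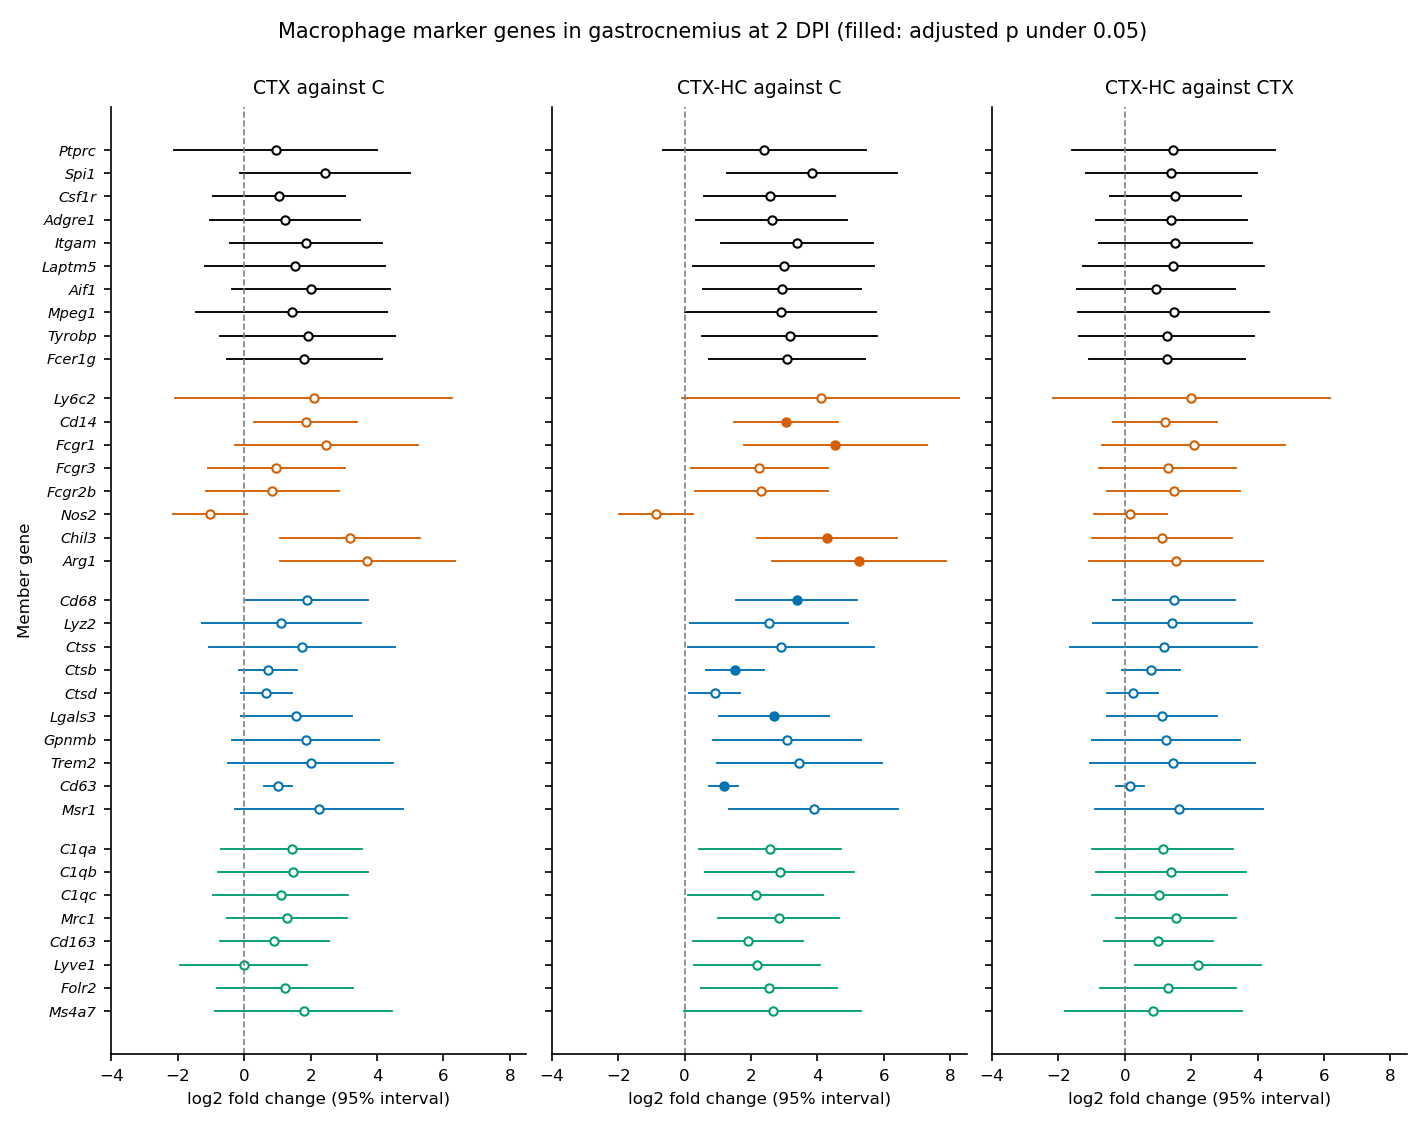
Log2 fold change at 2 DPI of 36 marker genes with its 95% interval from limma, for CTX against C, CTX-HC against C and CTX-HC against CTX, colored by class. Filled points passed an adjusted p of 0.05, which 8 genes did in the middle panel and none in the outer panels, and Nos2 is the only gene below 0 in the middle panel.

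With HC, 8 of the 36 macrophage genes rose over C at 2 DPI, against 9.93% of all genes. They were Arg1 (log2 fold change 5.25 ± 1.22, adjusted p of limma 0.0279), Fcgr1 (4.54 ± 1.28, 0.0437), Chil3 (4.30 ± 0.98, 0.0264), Cd68 (3.38 ± 0.85, 0.0335), Cd14 (3.05 ± 0.72, 0.0292), Lgals3 (2.69 ± 0.77, 0.0454), Ctsb (1.51 ± 0.40, 0.0399) and Cd63 (1.18 ± 0.20, 0.0128). Of these 4 are inflammatory and 4 are phagocytic genes. Chil3 and Arg1 reached the limit for testing only through libraries of 2 DPI, where they are high. Their difference from C is thus a description, and the other 6 carry the count. Of these 6, Cd14, Lgals3, Ctsb and Cd63 are not particular to macrophages. They were at 10 or more in all 24 libraries of the hepatocyte line AML12. All 10 lineage genes (median 2.97, lowest adjusted p 0.0553 for Spi1) and all 8 resident-type genes tested (median 2.56, lowest adjusted p 0.0502 for Mrc1) were higher in CTX-HC without passing. Over the 36 genes, 35 were higher and the median was 2.85, against 0.02 over all genes. At the limit of the study 31 macrophage genes were called, against 18.5% of all genes, and for 29 every CTX-HC library was above every C library, against 25.7% of all genes.

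The number that passed rested on single libraries. It was 0 without the second C library (0.235% of all genes called) or without CTX-HC library 58 (0.278%). It was 1 (Cd63) without C library 54 (0.463%), C library 53 (2.79%) or CTX-HC library 59 (1.19%). In these fits the median stayed between 2.14 and 3.13. The number that passed was 18 without CTX-HC library 60, against 15.3% of all genes. Where Arg1 and Chil3 passed, they are again a description. Without the lymphocyte-rich libraries 51 and 62, which are in neither group but enter the shared estimate of the spread, 32 macrophage genes passed, against 31.8% of all genes, and the fold changes were the same.

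Neutrophils also enter injured muscle early and share Itgam, Tyrobp, Fcer1g and Ptprc with macrophages. The summed value of 12 neutrophil genes was 9.5 to 45.2 in C, 27.5 to 419 in CTX and 337.5 to 1339.3 in CTX-HC at 2 DPI, where Camp, Ngp and Mpo were at 0 in all CTX-HC libraries and 1 of the 4 genes tested, Csf3r, rose over C. The summed value of 9 muscle fiber genes was 2502160 to 3378300 in C, 1707770 to 2585390 in CTX and 948157 to 1483180 in CTX-HC, and 2 of the 9, Myh7 and Pvalb, fell. The part of these cells in the values of the macrophage genes was not tested.

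The HC effect itself, CTX-HC against CTX at 2 DPI, was above 0 in all 36 genes (in 35 after quantile normalization, in 35 without CTX library 55 and in 34 without CTX-HC library 58), with a median log2 fold change of 1.35 (range 0.16 to 2.2) against 0.02 over all genes. None passed in limma (0% of all genes called, lowest adjusted p 0.662), while 1 macrophage gene and 1005 genes in all had an unadjusted p under 0.05. That gene was Lyve1 at 2.2 ± 0.88 (95% interval 0.30 to 4.10, unadjusted p of limma 0.0267). With the p values of limma, Lyve1 was the only 1 of the 36 called at the fold change and p limit defined above, against 1.77% of all genes. Which macrophage genes DESeq2 would call in this comparison was not tested. For the other 35 genes the interval held 0, and it also reached beyond 1 for 35 of the 36, so that the spread between libraries leaves a wide interval on either side.

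Inflammatory genes had a median of 1.38 in this comparison, lineage genes 1.43, phagocytic genes 1.21 and resident-type genes 1.22. Cd63 (0.16 ± 0.20), Nos2 (0.17 ± 0.51) and Ctsd (0.24 ± 0.35) were lowest. Only Fcgr1 and Cd68 had every CTX-HC library above every CTX library, 2 of 36 against 6.18% of all genes. The median was 0.59 without CTX library 57 and 0.89 without CTX-HC library 58, with no gene that passed in either case.

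Genes that recruit macrophages, regulate them or work with them in clearance were read from 4 further lists, to be set against the 9.93% of all genes called in CTX-HC against C. Against C at 2 DPI, CTX-HC raised 4 of 13 recruitment and growth factor genes tested, namely the monocyte chemokines Ccl7 (5.27 ± 1.22) and Ccl2 (4.18 ± 1.09), their receptor Ccr2 (3.48 ± 0.93) and Csf2ra (3.36 ± 0.88), and 12 of the 13 were above 0. Of 19 genes of dead-cell uptake and lysosomes, 6 rose, among them Stab1 (3.10 ± 0.71), Mertk (2.08 ± 0.53), Ctsz (1.57 ± 0.37), Ctsl (1.27 ± 0.35) and Hexa (0.90 ± 0.17). Of 12 regulators, Hmox1, the heme-degrading enzyme, rose (2.69 ± 0.67) and the transcription factor gene Maf fell (-1.12 ± 0.25). Of 10 cytokine genes tested, Il1rn, the interleukin-1 receptor antagonist, rose (4.91 ± 1.35). The shares of the regulator and cytokine lists were near that of all genes and are no result about these lists. In CTX against C and in CTX-HC against CTX at 2 DPI no gene of these lists passed, and Maf, Cebpb, Lamp1, Stab1, Igf1, Spp1, Csf1 and Itgb2, the most abundant of each list, ranged from -0.47 to 1.58 in CTX-HC against CTX.

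At 30 DPI no macrophage gene was called different from C in either injured group. CTX muscle was below C for 30 of the 36 genes (median -0.64) and CTX-HC muscle for 29 (median -0.44), and no macrophage gene passed in limma in either case (0% and 0% of all genes called), while no macrophage gene and 437 and 388 genes in all had an unadjusted p under 0.05. Without libraries 51 and 62 the medians were -1.48 and -1.42, still with no gene that passed. Leaving out most other single libraries brought them nearer to 0. For CTX the median was -0.15 without its second library, -0.21 without library 50 and -0.30 without C library 54. For CTX-HC it was -0.16 without library 63, -0.21 without library 61, -0.17 without C library 54 and -0.24 without C library 53. Without the second C library the medians were -1.20 and -1.05. CTX-HC against CTX had a median of 0.07, with 22 genes above 0 and none that passed (0% of all genes called), no macrophage gene and 106 genes in all having an unadjusted p under 0.05. Its sign turned with single libraries: it was -0.71 without library 62, -0.34 without the second CTX library, -0.32 without library 50, 1.1 without library 51 and 0.26 without both 51 and 62. It was also below 0 after quantile normalization (-0.03) and with library number series as a covariate (-0.52, with 7 of 36 genes above 0).

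In CTX muscle, 1 of the 36 genes, Cd63, fell from 2 to 30 DPI (log2 fold change -1.30 ± 0.20, adjusted p of limma 0.0266), against 0.257% of all genes. Of the 36, 34 were lower at 30 DPI, with a median of -2.05 and with the lowest values for Arg1 (-5.10 ± 1.22) and Chil3 (-5.04 ± 0.98), which did not pass. At the limit of the study 16 genes were called, against 8.88% of all genes, and for 5 genes every library of 30 DPI was below every library of 2 DPI, against 12.2% of all genes. None passed without any 1 of CTX libraries 55, 56, 51 and 50 (0.00713%, 0%, 0.0356% and 0% of all genes called). Only Chil3 passed without library 57, against 0.221% of all genes. Arg1, Cd63 and Chil3 passed without the second CTX library of 30 DPI, against 2.37% of all genes. Arg1 and Chil3 reached the limit for testing only through libraries of 2 DPI, so their fall in CTX is a description, in these fits too. Without library 51 and library 62 together, 19 passed, against 5.79% of all genes, and the median was -3.31.

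In CTX-HC muscle 17 of the 36 genes fell from 2 to 30 DPI, against 9.74% of all genes. They comprised 3 lineage genes (Itgam, Fcer1g and Adgre1), 4 inflammatory genes (Chil3, Arg1, Fcgr1 and Cd14), 7 phagocytic genes (Trem2, Gpnmb, Cd68, Msr1, Lgals3, Ctsb and Cd63) and 3 resident-type genes (Ms4a7, Folr2 and Mrc1). The lowest values were those of Chil3 (-6.34 ± 0.98, adjusted p of limma 0.00497) and Arg1 (-6.29 ± 1.22, 0.0118). These 2 entered the test only through the libraries of 2 DPI and are given as a description. Their size depends on the pseudocount because libraries of 30 DPI were at 0. All counts in this paragraph include these 2, and only the other genes carry the counts. The median of the 36 was -3.30, and Nos2 was the only gene above 0 (0.48 ± 0.51). At the limit of the study 31 genes were called, against 15.3% of all genes, and for 23 genes every library of 30 DPI was below every library of 2 DPI, against 13.3% of all genes.

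Without library 62, or without libraries 51 and 62, 32 genes passed, against 36.2% and 37.6% of all genes, and the median was -4.33. The number was 3 (Cd63, Cd68 and Chil3) without CTX-HC library 58, against 1.14% of all genes. It was 4 (Arg1, Cd63, Cd68 and Chil3) without library 59, library 61 or library 63, against 2.57%, 1.58% and 1.3%. Arg1 and Chil3 are a description in these fits too. With all libraries, 9.74% of all genes were called over the same interval. Of 13 recruitment genes tested 4 fell (Ccl7 at -6.89 ± 1.22, Ccl2, Csf2ra and Ccr2). Of 19 genes of dead-cell uptake and lysosomes 4 fell, among them Stab1, Ctsz and Hexa, and of 10 cytokine genes 4 (Spp1, Gdf3, Il1rn and Il1b). Of 12 regulators 2 fell (Hmox1 and Runx1), a share near that of all genes and no result about this list. Of 4 neutrophil genes tested, Csf3r (-4.93 ± 1.14) and Mmp8 (-4.75 ± 1.09) fell. Ccl7 was at 0 in library 61 and Mmp8 in libraries 61 and 63, so the size of their fall depends on the pseudocount. Whether genes of these lists reached the limit for testing only through libraries of 2 DPI was not checked. The change from 2 to 30 DPI of the HC effect was below 0 in all 36 genes (median -1.18), and none passed in limma (0% of all genes called), with no macrophage gene and 355 genes in all at an unadjusted p under 0.05. Its median was -0.26 without library 51, -0.47 without library 57 and -2.09 without library 62.

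In uninjured soleus the HC diet gave small differences, most of them upward. Folr2 was 12.8, 8.4, 13.3, 3.1 and 8.9 in Ut and 11.4, 10.3, 30.8, 22.5 and 26.6 in HC. Mrc1 was 31.6, 36.2, 34.5, 26.9 and 53.5 in Ut and 16.4, 64.3, 86.6, 64.5 and 120 in HC. Lyve1 was 37.8, 49.1, 51.2, 27.9 and 49.1 in Ut and 22.1, 78.9, 111.2, 83.4 and 72.4 in HC. For Mrc1 and Lyve1, 4 of the 5 HC libraries lay above all Ut libraries and the remaining HC library 75 lay below them all, whereas for Folr2 libraries 75 and 76 lay within Ut.

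Cd163 was 37.7, 20.2, 25.8, 26 and 37.8 in Ut and 13.5, 44.2, 77.5, 67.8 and 84.6 in HC, with the same order of libraries. C1qa was 78.3, 96.5, 85.2, 38.6 and 56.7 in Ut and 41.4, 98.4, 119.5, 100.3 and 172.3 in HC, again with library 75 low and library 79 highest. Csf1r was 72.2, 101.9, 111.1, 44.6 and 55.3 in Ut and 32.8, 102.3, 140.3, 124.4 and 187.7 in HC. For Cd163 and C1qa the other 4 HC libraries lay above all Ut libraries, and for Csf1r the groups overlapped further.

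Lineage genes with low values in soleus were Tyrobp, at 8.5, 3.1, 13.1, 11.5 and 14.7 in Ut and 11.4, 19, 20.2, 12.5 and 27.5 in HC, and Ptprc, at 10.4, 6.5, 13.5, 11.4 and 7.9 in Ut and 2.1, 13.4, 23.3, 19 and 31 in HC. Adgre1 was 13.7, 9.5, 15.1, 11.4 and 11.2 in Ut and 3.4, 12.3, 15.5, 22.6 and 25.5 in HC, and Fcer1g was 17, 18.6, 16.4, 7.3 and 18.1 in Ut and 13.6, 16.7, 21.3, 26.9 and 30.3 in HC. The groups overlapped for all 4. Phagocytic genes overlapped too: Cd68 was 26.8 to 53.2 in Ut and 26.3 to 63.1 in HC, Lyz2 150.7 to 246 and 78 to 444.3, Lgals3 53 to 76.9 and 42.5 to 76.4, and Gpnmb 73 to 131.8 and 66 to 128.2.

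**Figure D4:**
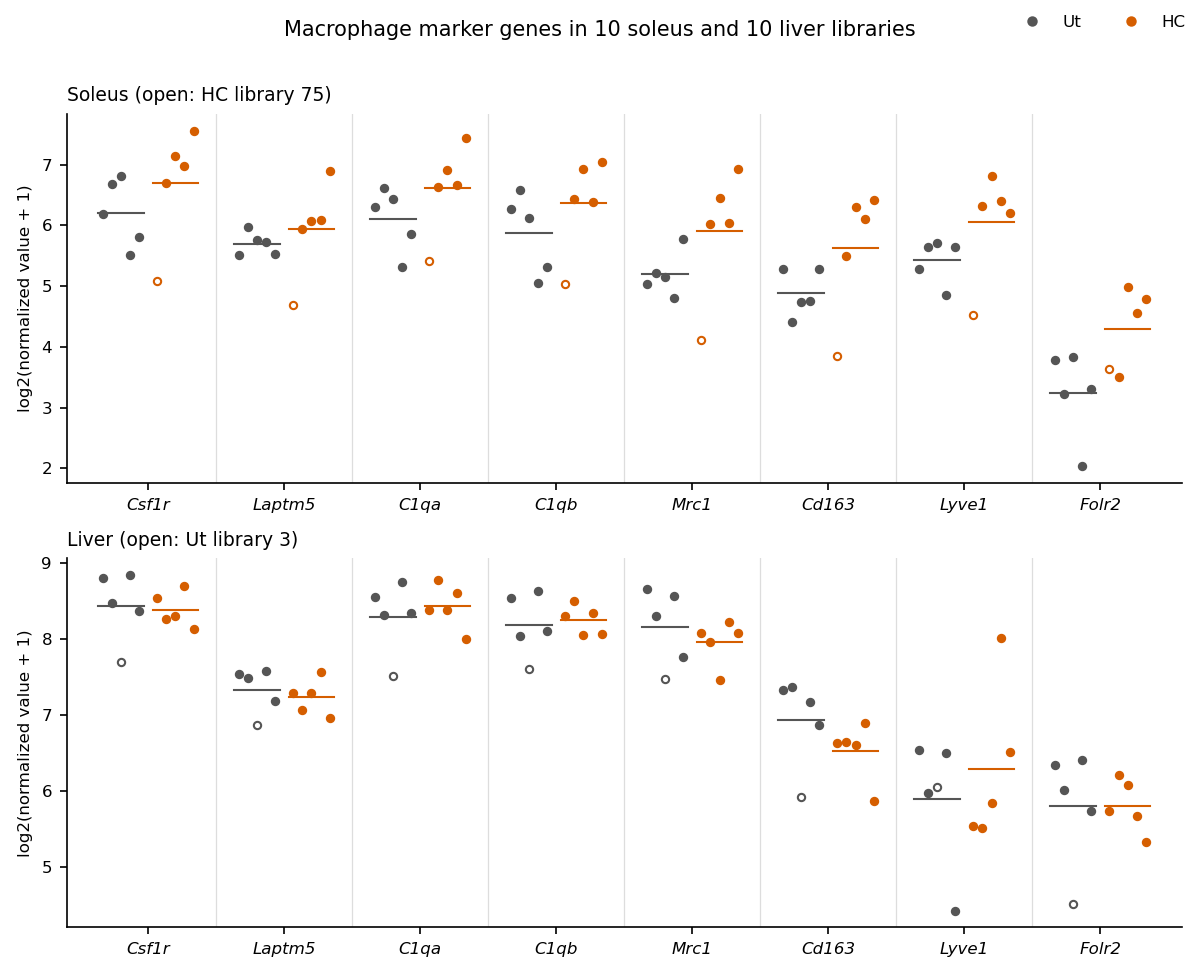
Log2 of the normalized value plus 1 of 8 marker genes in 10 soleus and 10 liver libraries, with a point per library and a bar for the group mean on the log2 scale. Open points are the HC library 75 of soleus, below all Ut libraries for Mrc1, Cd163 and Lyve1 while the other HC libraries lie above them, and the Ut library 3 of liver, the lowest of its group for all but Lyve1.

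Of the 37 genes, 26 reached the limit of 10 in at least 5 soleus libraries. Of these 23 were higher in HC, with a median log2 fold change of 0.33 against -0.01 over all genes, and with class medians of 0.62 for resident-type, 0.35 for lineage, 0.35 for inflammatory (3 genes) and 0.05 for phagocytic genes. None of the 26 passed in limma (0% of 12067 genes called, lowest adjusted p 0.948), and 2 of them and 609 genes in all had an unadjusted p under 0.05. These were Folr2 at 1.05 ± 0.40 (95% interval 0.18 to 1.92, unadjusted p 0.022) and Tyrobp at 0.85 ± 0.38 (0.02 to 1.67, unadjusted p 0.0455), and Folr2 was the only 1 called at the limit of the study, against 0.323% of all genes. The median was 0.68 without HC library 75, 0.73 without it and Ut library 70, and 0.13 without HC library 79, and no gene passed in these fits. In the same libraries the mast cell genes (5 genes) summed to 56.1 to 93.4 in Ut and 25.7 to 216.1 in HC, and the part of cell content was not tested.

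For the 11 genes under the limit in soleus, group means were compared by exact two-sided permutation, where 5 libraries against 5 can give no p below 0.00794. Over the 10 tests (Chil3 was at 0 in all libraries), Spi1 had the lowest p, with means of 5.31 in Ut and 12.6 in HC (exact p = 0.0238, adjusted 0.238). Ly6c2 had 2.48 and 1.34 (exact p = 0.0714), Cd14 had 8.85 and 13.2 (exact p = 0.151), Arg1 had 8.81 and 6.33 (exact p = 0.643), Trem2 had 4.53 and 3.82 (exact p = 0.587) and Timd4 had 0.83 and 3.06 (exact p = 0.0952). None passed after adjustment.

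Liver, whose resident macrophages are Kupffer cells, gave values close to each other in both diets. Of the 37 genes, 31 reached the limit in at least 5 libraries, and 7 Kupffer cell genes summed to between 2055.7 and 3619.1 in Ut and between 2454.1 and 3269 in HC. Timd4, typical of Kupffer cells of long residence, was 43.3, 40.8, 13.7, 66.1 and 27.4 in Ut and 49.6, 34, 31.8, 40.3 and 37.6 in HC. Csf1r was 447.9, 356.5, 206.1, 458.7 and 329.6 in Ut and 370.4, 307.6, 314.8, 415 and 281.1 in HC. Folr2 was 80.7, 63.8, 22, 83.9 and 52.7 in Ut and 52.6, 73.5, 66.8, 50.3 and 39.3 in HC. The groups overlapped for the 3 genes, and the lowest value of each was in Ut library 3.

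Cd163 was 159.7, 164.3, 59.6, 143.7 and 116.3 in Ut and 98.8, 99.1, 96.9, 118 and 57.8 in HC, so that the 3 highest libraries were Ut and the lowest was HC. Lyve1, which liver sinusoid endothelium makes as well, was 92.6, 62.1, 65.6, 90 and 20.6 in Ut and 45.6, 44.9, 56.7, 257.9 and 90.2 in HC, with 1 HC library far above the rest. Mrc1, also shared with that endothelium, was 403.3, 315.9, 176.4, 377 and 217.2 in Ut and 269.4, 248.3, 175.1, 298.2 and 269.3 in HC. C1qa was 181.3 to 430.5 in Ut and 256.2 to 437.9 in HC, and Adgre1 52.8 to 130.9 and 69 to 121.1.

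Among the other classes, Lyz2 was 175.5 to 410.7 in Ut and 259.3 to 420.1 in HC, Cd68 43.9 to 70.9 and 53.2 to 87.8, Lgals3 20.1 to 61.7 and 32.4 to 55.6, and Ptprc 34.8 to 71.3 and 43.8 to 78.6. Arg1 was 7511.4 to 15985.4 in Ut and 10511.1 to 15080.1 in HC, and in liver it is chiefly the urea cycle enzyme of hepatocytes and no measure of macrophages. Of the inflammatory class, Nos2 and Chil3 were at or under 2.04 and Ly6c2 at or under 5.87 in every liver library. The other 5 of the 8 genes reached the limit for testing.

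**Figure D5:**
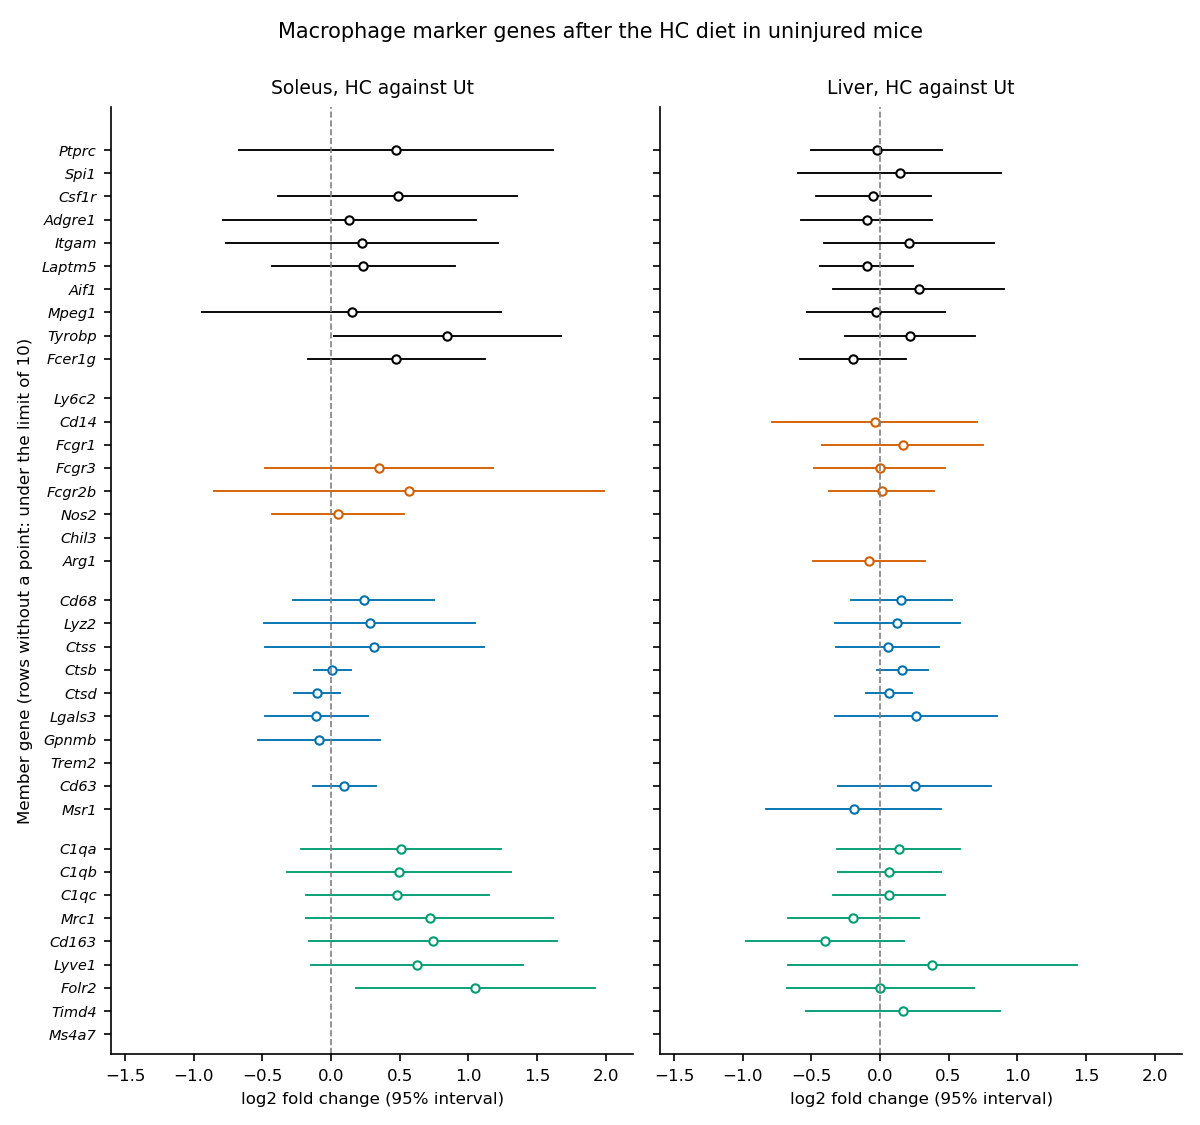
Log2 fold change of HC against Ut with its 95% interval from limma in soleus (26 genes) and liver (31 genes), with rows left without a point for genes under the limit. All points are open since none passed an adjusted p of 0.05, with soleus points mostly to the right of 0, led by Folr2 at 1.05, and liver points on both sides.

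The median log2 fold change of the 31 genes in liver was 0.06, against -0.01 over all genes, and 19 were above 0. None passed in limma (0% of 11497 genes called, lowest adjusted p 0.995), no macrophage gene and 488 genes in all had an unadjusted p under 0.05, and values ran from -0.40 ± 0.27 for Cd163 (95% interval -0.97 to 0.17) to 0.38 ± 0.49 for Lyve1 (-0.67 to 1.44). Intervals were narrower than in gastrocnemius, for example -0.47 to 0.37 for Csf1r and -0.31 to 0.58 for C1qa. The median turned to -0.09 without Ut library 3. For the 6 genes under the limit (Ly6c2, Nos2, Chil3, Gpnmb, Trem2 and Ms4a7) the lowest exact permutation p, two-sided, was 0.0952 for Ms4a7, at means of 2.07 in Ut and 6.00 in HC.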

How the data were processed

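RNA sequencing of gastrocnemius, soleus and liver of mice was read from the tables the authors deposited. The authors aligned reads to mm10 by STAR and scaled the gene counts with the DESeq2 package, so the deposited values are a normalized signal per gene, counts divided by a library size factor, and not whole read counts. Whole reads could not be recovered, so depth was only estimated and no count model was run. The methods describe an mRNA ligation kit, while the labels of liver and soleus name a ribosomal RNA depletion kit, so levels were not compared between tissues. Per the labels, groups were taken for 59 libraries in 17 groups, of which 24 are of a hepatocyte line.

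Values were tested as log2(value + 1) with limma 3.58.1 (R 4.3.3) with a trend, all groups of a table in 1 fit, for genes at 10 or more in a minimum of 3 libraries in gastrocnemius and 5 in soleus or liver, with adjustment by Benjamini and Hochberg over all genes at 0.05. Genes under the limit were compared by exact permutation (scipy 1.17.1). The fit was tested on simulated data. There were 11 comparisons. The members and lists were chosen with earlier results of these data known. Per library values are given for a fixed set of genes of each class, with the 2 largest rises and 2 largest falls among the genes that passed in each comparison. Apart from 1 pair in soleus, replicate numbers of soleus and liver did not pair the libraries, and those of gastrocnemius follow accession order. Alternatives were another pseudocount (0.5 or 5), no limit on low values, other scalings, a fit of the compared groups alone, library number series as a covariate, and leaving out libraries. The series sets the second C library (107) and the second CTX library of 30 DPI (104) apart from the other gastrocnemius libraries. This second C library is also the low one of its group in the median level of the genes. The values of 1 gene of a pathway list are not reported here.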

Additional observations from a re-analysis of the deposited data

Results flagged for a closer look

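In soleus and liver, the highest or lowest library of a group of 5 lay far from the others for 8 of 114 groups checked, where chance gives about 1 in 20 (5.7 of 114). In soleus these were Mpeg1, which encodes a pore-forming protein of phagosomes, at 106.6 in HC library 79 (next value 25.3), Fcer1g at 7.3 in Ut library 73 (next value 16.4) and the protease gene Ctsd at 6882.1 in HC library 75 (next value 6019.7). In liver they were Ptprc at 78.6 (next value 52.7) and Lyve1 at 257.9 (next value 90.2), both in the fourth HC library, Spi1 at 19.2 in the fifth HC library (next value 30.9), Fcgr2b at 176.3 in the third HC library (next value 254.8) and Cd68 at 43.9 in the third Ut library (next value 64.1). Groups of 3 were not checked.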

How the results depend on the processing

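The number of macrophage genes that passed depended on the fit in 3 comparisons of gastrocnemius. The share of all genes called in the same fit is given in brackets. In CTX-HC against C at 2 DPI, 8 passed (9.93%). With no limit on low values 5 did (4.97%), after quantile normalization 17 (16.5%) and with library number series as a covariate 1 (1.65%). A fit of these groups alone gave 28 (30.6%), and leaving out libraries 51 and 62, chosen after seeing the data, gave 32 (31.8%). At the limit of the study 31 were called (18.5%), and 0 to 18 passed when 1 replicate was left out (0.235% to 15.3%). In CTX at 30 against 2 DPI, 1 passed (0.257%). The numbers were 2 after quantile normalization (0.321%), 0 with the series covariate (0.0285%) and 0 in the fit of these groups alone (0.0143%). They were 19 without libraries 51 and 62 (5.79%), 16 at the limit of the study (8.88%) and 0 to 3 with 1 replicate left out (0% to 2.37%). In CTX-HC at 30 against 2 DPI, 17 passed (9.74%). The number was 1 in the fit of these groups alone (0.164%) and 32 without libraries 51 and 62 (37.6%). It was 31 at the limit of the study (15.3%) and 3 to 32 with 1 replicate left out (1.14% to 36.2%). Counts in this section include Arg1 and Chil3 where they passed, and their differences are a description. At the limit of the study 5 genes were called in CTX against C at 2 DPI (4.73%). It was 1 in CTX-HC against CTX at 2 DPI (1.77%) and 1 in soleus (0.323%), and 0 passed otherwise in these comparisons. The cause was not tested. Quantile normalization moved the median of all genes by -0.138 in CTX-HC against C at 2 DPI. A fit with the replicate number as a block called 0 genes in soleus and 0 in liver (lowest adjusted p of limma 0.786 and 0.994). Libraries with the same number correlated at -0.112 to 0.403 in soleus and at 0.0243 to 0.0833 in liver, so the numbers did not pair them. For single genes that passed, 235 values under an alternative passed too and 129 kept their direction without passing. No gene that passed changed direction, but the median over the genes turned sign in CTX-HC against CTX at 30 DPI and in liver, as given above. Groups of 3 libraries and estimated depth limit the precision.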

Other observations

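The 24 libraries of AML12 fall in 8 groups of 3, with control or Acly siRNA and each without treatment or with hydroxycitrate, SB-204990 or bempedoic acid, and the ranges given span all of these groups. In AML12, a mouse hepatocyte line that holds no macrophages, 6 of the 37 genes were listed at 0 in all 24 libraries (Ctss, Msr1, C1qb, C1qc, Lyve1 and Timd4) and 23 were under 10 in all of them. The 6 genes at 10 or more in every library were Cd14 (2035.5 to 4350.4), Nos2 (494 to 2708.9), Ctsb (6981.6 to 11388.5), Ctsd (11306.6 to 31198.3), Lgals3 (2854.4 to 8531.9) and Cd63 (3582.9 to 6575.6), all of them made by this line without macrophages.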
